A study of Mus musculus with 9 samples.

Results

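The neighbourhood of Lpl holds 30 PPARγ binding sites (peaks) of the 66066 in the count table, namely every peak of chromosome 8 (mm10) whose midpoint lies between 100.6 kb upstream and 79.4 kb downstream of the Lpl start site. Chromatin immunoprecipitation (ChIP)-sequencing for PPARγ was performed on interscapular brown adipose tissue (iBAT) of chow-fed male C57BL/6J mice, 10 weeks old and kept at mild cold on a light:dark cycle. Tissue was collected at 3-hour intervals, and the groups are the 8 Zeitgeber times (ZT) from ZT0 (lights on) over ZT12 (lights off) to ZT21. Each time point is 1 library made from the pooled tissue of 8 mice, all wild type and untreated, so there are no replicates and the differences between mice or pools cannot be estimated. The comparison asks which of these binding sites change over the day, and whether sites that lie next to each other change alike.

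Lipoprotein lipase, encoded by Lpl, is secreted by adipocytes, carried to the capillary wall and releases fatty acids there from the triglycerides of circulating lipoproteins. PPARγ is a nuclear receptor that drives adipocyte differentiation and lipid storage. It binds DNA together with a retinoid X receptor, typically at a direct repeat of AGGTCA half-sites spaced by 1 base (DR1), and Lpl is one of its classical targets in fat. The next gene upstream, Ints10, encodes a subunit of the Integrator complex, which processes nascent RNA at RNA polymerase II. In pooled tissue, binding in fewer nuclei and weaker binding per nucleus cannot be told apart.

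In mm10 Lpl lies on the forward strand from 68880555 to 68906932 and has 10 exons, and Ints10 lies on the same strand from 68793929 to 68829410 and has 19 exons. Peaks are named here by the distance of their centre from the Lpl start site. The nearest start site is that of Ints10 for 8 peaks (−95.2 to −45.4 kb) and that of Lpl for 22: 10 upstream (−42.9 to −4.4 kb), 7 with their centre in an Lpl intron (+1.5 to +22.8 kb) and 5 downstream (+27.7 to +75.1 kb). The predicted long noncoding RNAs Gm51577 and Gm32997 lie at the −19.8 kb peak and at the +73.8 and +75.1 kb peaks.

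**Figure D1:**
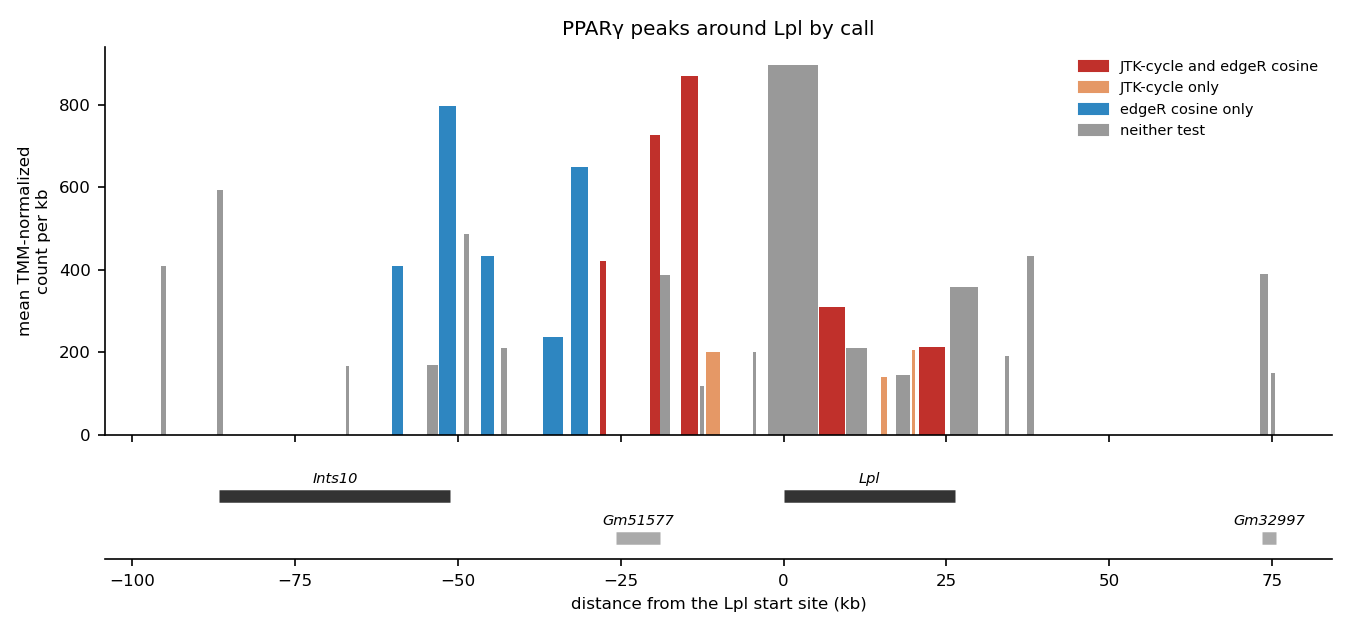
Mean PPARγ signal per kb of peak (normalized count, mean of 8 libraries) against the distance from the Lpl start site in kb, with gene bodies drawn to scale underneath; bar width is peak width, drawn at no less than 0.5 kb. Colours give the calls: the 8 peaks called by JTK-cycle lie between −27.7 and +22.8 kb, the 5 called by the edgeR cosine only lie between −59.2 and −31.4 kb, and the densest peak, at the start site, was called by neither.

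The sequence of each peak was scanned for DR1 elements in either orientation (13 bases, of which 12 are fixed, with up to 2 mismatches). They were found in 12 of 30 peaks; among all peaks on the chromosomes searched the share was 23.6%, and peaks of like width (within 10%) would give 9.93 of 30. None of the 5 peaks that both rhythm tests called holds one (3 mismatches at best), against 3 of 3 called by JTK-cycle only, 2 of 5 called by the cosine only and 7 of 17 called by neither. Peaks of like width would give 2.13 of 5, 0.737 of 3, 2.05 of 5 and 5.01 of 17 in that order, and the difference between the classes was not tested. The elements of the peaks outside untranslated exons are shown, in capitals with 8 flanking bases on each side and read on the strand given, because they let the called and uncalled sites be compared.
−66.9 kb, called by neither test, Ints10 coding exon 12, chr8:68813628-68813656, forward: tcagccacAGATCACAGGACAggggactt
−31.4 kb, called by the cosine only, intergenic, chr8:68849617-68849645, forward: gtgtctggAAGTCAGAGGTCAaacaagac
−18.1 kb, called by neither test, intergenic, chr8:68861908-68861936, forward: aaaggccaAGGTCAGAGATCTttatctct
−10.8 kb, called by JTK-cycle only, intergenic, chr8:68869769-68869797, forward: agaaaaggAAATCAGAGGTCAggacagtt
+1.5 kb, called by neither test, intergenic end of the start-site peak, chr8:68878258-68878286, reverse: ctgatgttAAGTGATAGGTCActtctcca
+15.5 kb, called by JTK-cycle only, Lpl intron 5, chr8:68896225-68896253, reverse: tagtagagAGGTCAGAGGATAaatttggt
+18.3 kb, called by neither test, Lpl intron 7, chr8:68899618-68899646, reverse: tcgtggggAGGTCAGGAGTCAtgtgtact
+20.0 kb, called by JTK-cycle only, Lpl intron 7, chr8:68900556-68900584, forward: ttaacattAAGGCAAAGGTCAtgggagtt
+34.3 kb, called by neither test, intergenic, chr8:68914522-68914550, reverse: aagaattgAGTACACAGGTCAgtttcagt
+75.1 kb, called by neither test, intergenic, chr8:68955475-68955503, reverse: ctggatgaGGGTCAAAGGACAggttctga

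The −31.4 kb element has 1 mismatch to the fixed bases and the other elements have 2. Elements in untranslated exon sequence, 2 in the −51.5 kb peak (Ints10 exon 19) and 1 in the +27.7 kb peak (Lpl exon 10), are not printed. With up to 1 mismatch, 1 of 30 peaks holds an element, against 4.99% of all peaks. In the central 300 bases, 4 of 30 hold one with up to 2 mismatches, against 9.66% of all. The peaks were otherwise rather AT-rich, with a median GC content of 42.9% against 47.3% over all peaks, and the Ints10 promoter peak at −86.5 kb had the highest GC content, 60.2%.

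Signals are counts divided by the library total and a TMM factor and scaled to the mean library total, so they are normalized counts per peak. Between 29572225 and 34264812 reads per library lay in peaks, of which the neighbourhood took 0.0951% at ZT6 and 0.0714% at ZT18, its highest and lowest share. The strongest peak nearest Ucp1, the uncoupling protein that marks brown adipocytes, had 876 reads per kb, above 96.9% of all peaks. Intervals at 95% are Wilson intervals of single counts and cover counting error only.

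Of the 30 peaks, 8 had an exact adjusted JTK-cycle P value under 0.05 (oscillating), where 11.6% of all 66066 peaks did. The 24-h cosine fitted by edgeR called 10 of 30 at a Benjamini-Hochberg adjusted P value under 0.05, where it called 13.4% of all peaks. Both tests called 5 (6.71% of all peaks), 3 were called by JTK-cycle only, 5 by the cosine only and 17 by neither. The 30 peaks are stronger (median mean count 467 against 224 over all peaks) and wider (median 1528.5 against 813 bases). The shares of all peaks were not matched for strength or width. With 8 values JTK-cycle can give few distinct P values, and after Benjamini-Hochberg correction over all peaks the q values of the 8 were 0.128 for the −14.5 kb peak and 0.224 for the other 7, so none passes 0.05 over all peaks.

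Of the 30 peaks, 17 were highest at ZT6 (17.4% of all peaks were) and 7 at ZT12 (10.6% of all). All ZT6 values come from the same library, so the 17 maxima are not separate evidence on the hour. Each of the 8 oscillating peaks was highest at ZT6 and lowest at ZT15 or ZT18. Among the peaks nearest Ints10, 4 of 8 were highest at ZT12 and 1 at ZT6, while 16 of 22 nearest Lpl were highest at ZT6. Summed over the 22 peaks nearest Lpl, the signal was 25262 at ZT6 and 17692 at ZT18, a ratio of 1.43. The 8 oscillating peaks held 25.5% of the reads of the neighbourhood.

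**Figure D2:**
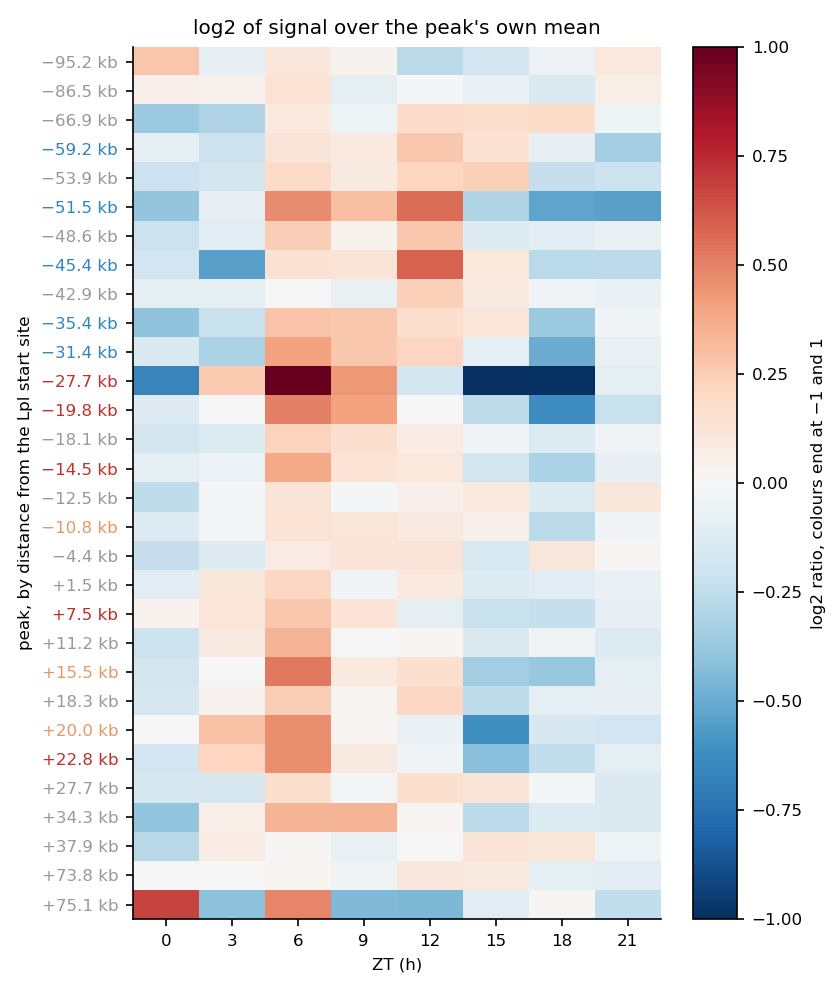
Signal of each of the 30 peaks at each of the 8 time points (ZT in h) as log2 of the ratio to the peak's own mean, in order of position; label colours give the calls as in the map. The red column at ZT6 runs through most peaks from −59.2 to +34.3 kb, while the peaks from −59.2 to −42.9 kb are also high at ZT12.

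Of the 8 peaks nearest Ints10, JTK-cycle called 0 and the cosine called 3. The outermost peak, at −95.2 kb (chr8:68785008-68785738, intergenic), had signals of 363, 279.5, 324, 306, 248, 262, 287 and 321 from ZT0 to ZT21. It was highest at lights on and lowest at lights off, whereas 4 of the 8 were highest at lights off (adjusted P = 0.266 by edgeR). At the Ints10 promoter, the −86.5 kb peak (chr8:68793558-68794468, exon 1) read 559.9, 557, 596, 506, 534, 516, 489 and 564 in the same order. Its highest value was only 1.22 times its lowest, so the promoter of the neighbouring gene was among the flattest sites. In Ints10 exon 12, the weak −66.9 kb peak (chr8:68813424-68813918) had 63.7, 67.0, 88.4, 80.2, 93.5, 93.1, 93.7 and 80.2, higher in the dark than at ZT0 and ZT3, without passing (adjusted P = 0.236 by edgeR).

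Toward the 3′ end of Ints10 most peaks were highest near lights off. The −59.2 kb peak (intron 15, chr8:68820480-68822190) had 655, 606, 766, 749, 844, 775, 663 and 553 from ZT0 to ZT21, with a fitted maximum at ZT10.9 ± 0.968 h (adjusted P = 0.0423 by edgeR). That call was lost when the ZT6, ZT9, ZT12, ZT15, ZT18 or ZT21 library was left out (edgeR adjusted P up to 0.141) and with library totals only (adjusted P = 0.0524). Its neighbour at −53.9 kb (intron 18, chr8:68825786-68827448) had the lower signals 241, 246, 319.7, 298, 325, 331, 238 and 242 and did not pass (adjusted P = 0.0854 by edgeR).

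The strongest change on the Ints10 side was that of the −51.5 kb peak (chr8:68827705-68830342), which spans the 3′ end of Ints10. Signals were 1599.5, 1987, 2919.8, 2589, 3090.0, 1708, 1459 and 1441 from ZT0 to ZT21. It stood high from ZT6 to ZT12, with 3090.0 at ZT12 (95% interval 2982 to 3202), and low at ZT21 with 1441 (95% interval 1367 to 1518), a ratio of 2.14. The cosine amplitude was 0.57 ± 0.067 on the log2 scale (SE) with the maximum at ZT8.62 ± 0.447 h, and edgeR gave an adjusted P value of 0.000780, the lowest of the 30 peaks. It passed in all 8 edgeR fits with 1 library left out. JTK-cycle gave an exact adjusted P value of 0.0826, which is the first attainable value above 0.05, and passed with a period of 24 h only (adjusted P = 0.0440) and without ZT6, ZT9 or ZT12 (adjusted P of at most 0.0417).

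Between Ints10 and Lpl, the −48.6 kb peak (chr8:68831474-68832341) read 365, 392, 500.4, 434, 509.5, 386, 390.5 and 402 and was highest at ZT12 and ZT6, without passing (adjusted P = 0.199 by edgeR). The −45.4 kb peak (chr8:68834181-68836048) read 709, 556, 895, 889, 1218, 871, 672 and 674, and its highest-to-lowest ratio, ZT12 over ZT3, was 2.19. This peak had a ratio of 1.61 without the ZT12 library and 1.81 without the ZT3 library. Its cosine passed (amplitude 0.39 ± 0.083, maximum at ZT11.4 ± 0.824 h, adjusted P = 0.0187 by edgeR), but not without the ZT12 library (adjusted P = 0.118). JTK-cycle gave it an exact adjusted P value of 0.915, but passed with library totals only (adjusted P = 0.0260).

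The first peak whose nearest start site is that of Lpl, at −42.9 kb (chr8:68837220-68838142), was flat with 184, 183, 196, 186, 230.1, 208, 191 and 187 from ZT0 to ZT21. Next to it, the −35.4 kb peak (chr8:68843605-68846645) had 544, 619, 878, 871, 807, 785, 557 and 706, a plateau from ZT6 to ZT15 above the other time points. The −31.4 kb peak (chr8:68847851-68850534), which holds the DR1 element with 1 mismatch, had 1575, 1398, 2304, 2103, 2024, 1634, 1233 and 1653. Both passed the edgeR cosine with similar amplitudes, 0.29 ± 0.076 (adjusted P = 0.0439) and 0.31 ± 0.079 (adjusted P = 0.0394), and maxima at ZT9.90 ± 0.983 h and ZT8.42 ± 0.972 h. Each call was lost without ZT0, ZT6, ZT9, ZT12, ZT15 or ZT18 and with library totals only, where the adjusted P values were 0.0649 and 0.0654, and leaving out those libraries gave up to 0.123 and 0.148. The −31.4 kb peak was strong, at 648 reads per kb. Its DR1 element lies outside its central 300 bases, where the best match has 4 mismatches. Of peaks of like width, 45.7% hold an element with up to 2 mismatches.

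The largest change of the neighbourhood was at −27.7 kb (chr8:68852313-68853314, intergenic). Signals were 267, 505, 945, 571, 373, 157, 165 and 397 from ZT0 to ZT21. From 945 at ZT6 (95% interval 888 to 1007) the signal fell to 157 at ZT15 (95% interval 135 to 183), a ratio of 6.01, where the median ratio was 1.47 over the 30 peaks and 1.52 over all peaks. The low values at ZT15 and ZT18 fall in the first part of the dark period, and the value at ZT21 lay above both. The cosine amplitude was 1.00 ± 0.16 on the log2 scale with the maximum at ZT5.57 ± 0.622 h (adjusted P = 0.00464 by edgeR), larger than in 99.9% of all peaks. The exact adjusted JTK-cycle P value was 0.0260. Without ZT6 the ratio was 3.63 and JTK-cycle did not pass (adjusted P = 0.161), while the cosine passed in all 8 fits with 1 library left out.

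At −19.8 kb (chr8:68859986-68861512, over the end of Gm51577) the signals were 1015, 1107, 1569, 1464, 1109, 930.4, 719 and 952 in the same order. High values at ZT6 and ZT9 fell steadily to ZT18, and the ratio was 2.18 (amplitude 0.45 ± 0.064, maximum at ZT6.83 ± 0.551 h, adjusted P = 0.00241 by edgeR). The peak that follows after 149 bases, at −18.1 kb (chr8:68861662-68863191), had 524, 539.9, 693, 669, 626, 583, 541 and 579. Its maximum was likewise at ZT6 but only 1.32 times its minimum, and neither test passed (exact adjusted JTK-cycle P = 0.467; adjusted P = 0.172 by edgeR).

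The −14.5 kb peak (chr8:68864768-68867421) was the densest of the oscillating peaks, with 869 reads per kb, close to the 895 of the start-site peak. Signals were 2167, 2210.2, 3000.4, 2535, 2481, 2028, 1856 and 2174, with ZT6 above and ZT18 below all other time points. It had the lowest JTK-cycle P value of the neighbourhood (exact adjusted P = 0.00595) at a ratio of 1.62 and an amplitude of 0.25 ± 0.055 (adjusted P = 0.0231 by edgeR). A weak peak 291 bases further, at −12.5 kb (chr8:68867713-68868411), held 69.9, 82.3, 91.3, 82.2, 86.3, 89.3, 76.0 and 90.4 and was called by neither test (adjusted P = 0.862 by edgeR). The −10.8 kb peak (chr8:68868664-68870787) held 388, 422, 468, 463, 453, 440.5, 353 and 417. It is the least changed of the oscillating peaks (ratio 1.33, exact adjusted JTK-cycle P = 0.0260), and edgeR did not call it (adjusted P = 0.258). The last upstream peak, at −4.4 kb (chr8:68875941-68876345, 405 bases), held 69.9, 74.7, 86.5, 89.1, 89.4, 73.7, 88.5 and 82.2 and was called by neither.

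The peak over the Lpl start site (chr8:68878204-68885843, 7640 bases, centred in intron 1 and covering exon 1) was the strongest, with signals of 6345, 7407, 7871, 6691, 7299.7, 6229.8, 6324 and 6514 from ZT0 to ZT21. Only 91 of all peaks had a higher mean signal. It was highest at ZT6 and next highest at ZT3 and ZT12, and its ratio of 1.26 was under the median of all peaks. Counting error widens the ratio of weaker peaks, and that median was not matched for strength. The fitted amplitude of the start-site peak was larger than that of 35.3% of all peaks. The counting intervals were narrow (ZT6, 7702 to 8044; ZT15, 6079 to 6384). Neither test passed (exact adjusted JTK-cycle P = 0.0826; amplitude 0.13 ± 0.043, adjusted P = 0.106 by edgeR), although JTK-cycle passed without ZT9 (adjusted P = 0.0417) or without ZT12 (adjusted P = 0.00595).

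Within the gene body, 4 of the 7 peaks oscillated, and each uncalled peak after the first lay between oscillating ones. The +7.5 kb peak (intron 2, chr8:68886049-68889988) had 1247, 1324, 1466, 1339, 1138, 1047, 1039 and 1149 from ZT0 to ZT21, a ratio of 1.41 (exact adjusted JTK-cycle P = 0.0260; amplitude 0.23 ± 0.047, adjusted P = 0.0156 by edgeR). In the same intron, after 175 bases, the +11.2 kb peak (chr8:68890164-68893364) had 579, 717, 849, 674, 683, 608, 655 and 613. It was also highest at ZT6, with a ratio of 1.47, but its other values did not follow an order in time and neither test called it (exact adjusted JTK-cycle P = 0.915). The amplitude was 0.17 ± 0.066, which overlaps that of its called neighbour within the errors.

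Further into the gene, the +15.5 kb peak (intron 5, chr8:68895568-68896457) had 111, 126, 182, 135, 141, 99.0, 96.8 and 118, and its ratio was 1.88 (exact adjusted JTK-cycle P = 0.0260). The +18.3 kb peak (intron 6, chr8:68897826-68899948) had 275, 317, 367, 315, 357, 260.0, 291 and 292, with ZT6 and ZT12 both high, and was not called. The +20.0 kb peak (intron 7, chr8:68900301-68900798) had 103, 125, 141, 104, 97.6, 66.9, 91.6 and 89.4, with 141 at ZT6 (95% interval 119.7 to 166) against 66.9 at ZT15 (95% interval 52.9 to 84.7). It oscillated by JTK-cycle (exact adjusted P = 0.0260) and missed the edgeR threshold (adjusted P = 0.0512), as did the +15.5 kb peak (adjusted P = 0.0807). Each of these weak sites holds a DR1 element with 2 mismatches.

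At the end of the gene, the +22.8 kb peak (intron 9, covering exons 9 and 10 in part, chr8:68901353-68905357) had 752, 998, 1183, 915, 841, 641, 725 and 808. It was high from ZT3 to ZT9 and lowest at ZT15, with a ratio of 1.85, and both tests passed (exact adjusted JTK-cycle P = 0.0260; amplitude 0.33 ± 0.067, adjusted P = 0.0155 by edgeR). The +27.7 kb peak (just past the gene, chr8:68906049-68910366) follows after 691 bases and had 1384, 1384, 1725, 1520.5, 1719.6, 1683, 1531 and 1398. Its values at ZT12 and ZT15 were as high as at ZT6 within counting error, and neither test passed (adjusted P = 0.122 by edgeR).

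None of the 5 downstream peaks was called by either test. The +34.3 kb peak (chr8:68914516-68915214) had 102, 139.8, 169, 169, 136, 112, 122 and 121, highest at ZT6 and ZT9. The +37.9 kb peak (chr8:68917922-68918991) had 382, 487, 467, 441, 465, 507, 504 and 449 and was lowest at ZT0. No peak of the table lies in the 34761 bases that follow. The +73.8 kb peak (chr8:68953753-68954961) had 471, 473, 478, 461, 508, 503, 442 and 435, the smallest ratio of the 30 peaks (1.17). The +75.1 kb peak (chr8:68955310-68955928), 348 bases from it, had 148, 69.9, 130.2, 68.3, 67.8, 86.4, 93.7 and 78.1, with the ZT0 and ZT6 libraries far above the other 6, and a ratio of 2.18 without a test that passed (adjusted P = 0.377 by edgeR).

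**Figure D3:**
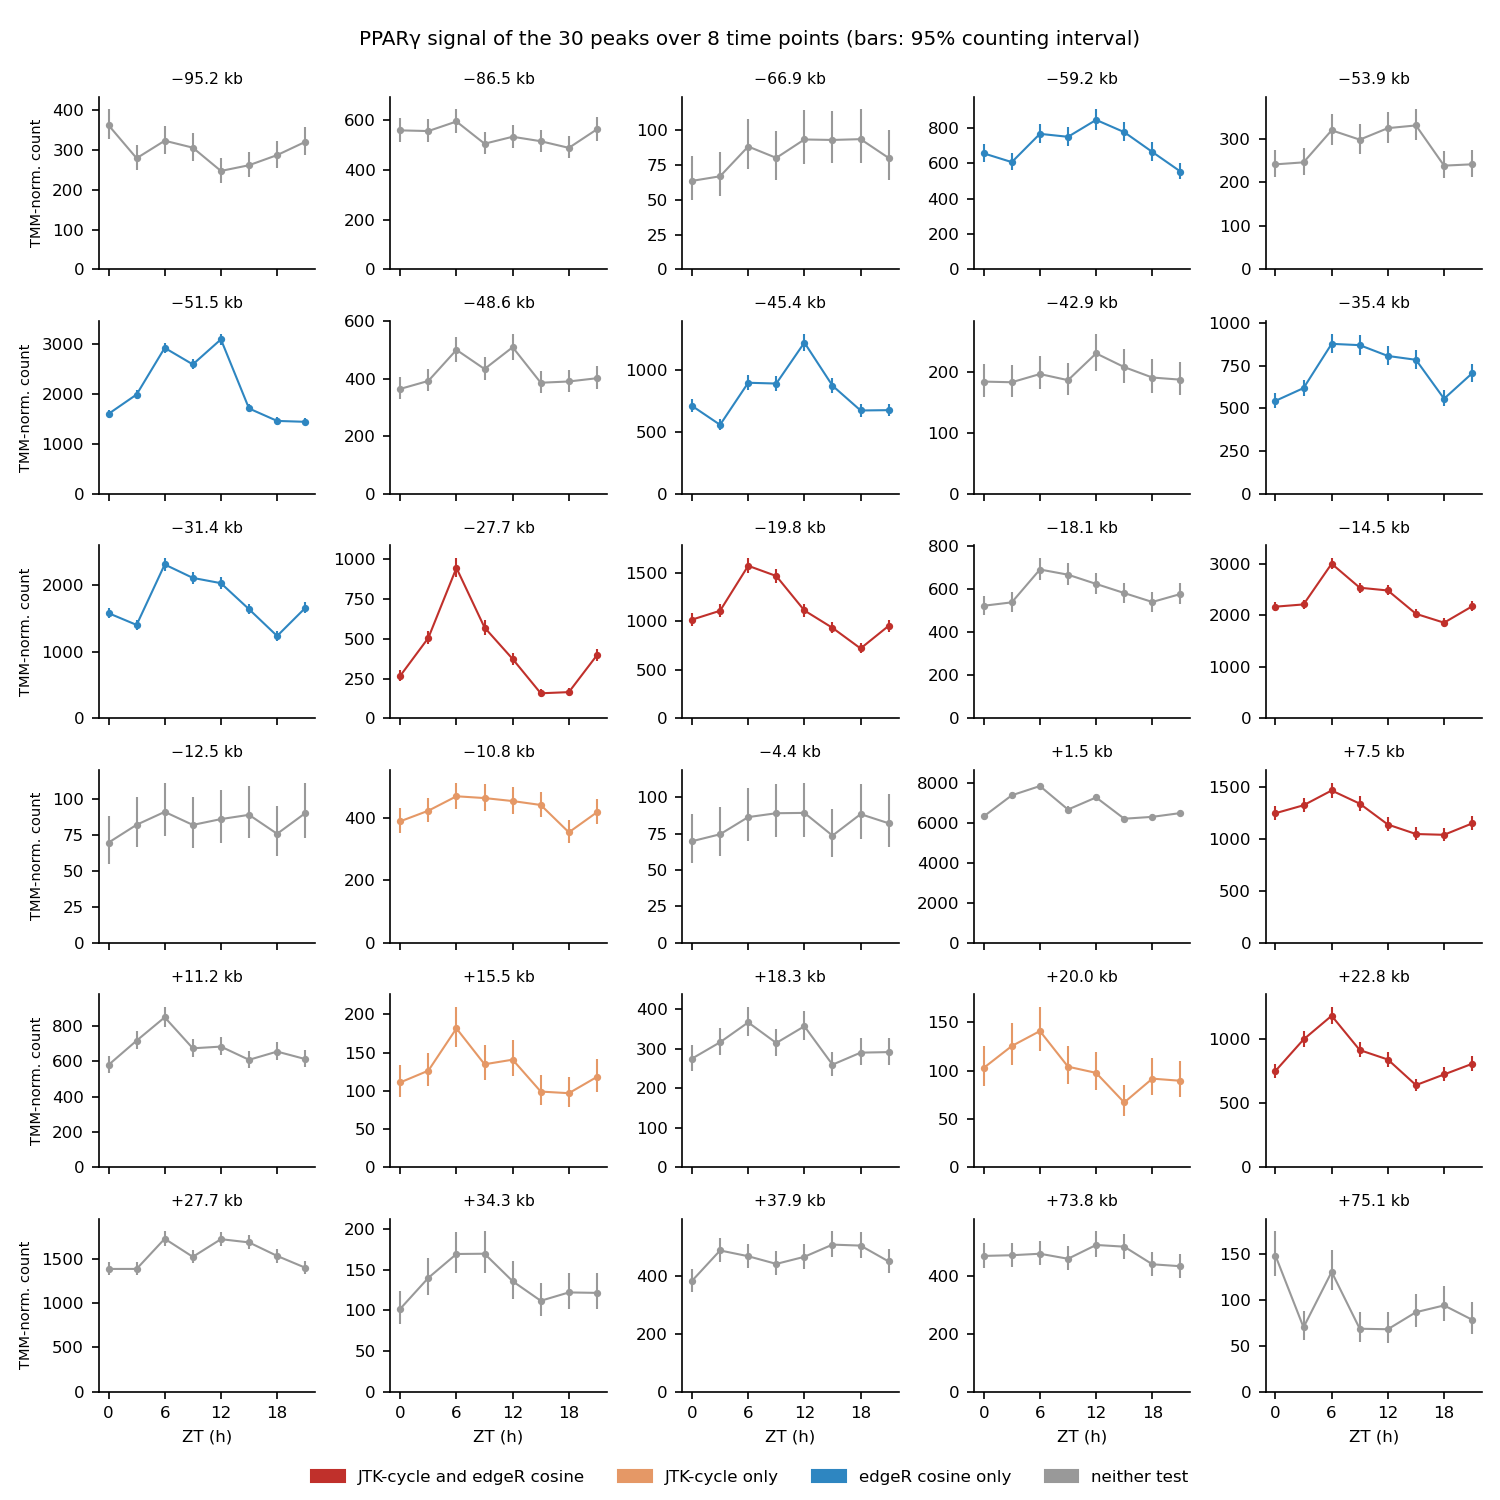
Normalized count (y, from 0, own scale per panel) against ZT in h for all 30 peaks, named by the distance from the Lpl start site; points are single libraries and bars are 95% Wilson intervals of counting error. The −27.7 kb panel spans 157 to 945, whereas the +73.8 kb panel stays between 435 and 508.

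The JTK-cycle calls were not equally stable when 1 library was left out. In such runs 0.0417 and 0.161 are neighbouring attainable adjusted JTK-cycle P values, so a failure at 0.161 is the smallest step over the threshold. The −14.5 kb peak passed in 8 of 8 such runs. The +22.8 and −27.7 kb peaks passed in 7 and failed without ZT6 (adjusted P = 0.161 and 0.161). The −19.8 kb peak passed in 5, failing without ZT6, ZT9 or ZT18, and the +7.5 kb peak in 5, failing without ZT6, ZT15 or ZT18, with adjusted P values up to 0.161. The −10.8 kb peak passed in 4 (not without ZT0, ZT12, ZT18 or ZT21), the +15.5 kb peak in 3 (not without ZT0, ZT6, ZT15, ZT18 or ZT21) and the +20.0 kb peak in 3 (not without ZT0, ZT3, ZT6, ZT9 or ZT12), with adjusted P values up to 0.161. The −10.8 and +20.0 kb peaks also failed with library totals only, at adjusted P values of 0.467 and 0.0826. Other peaks gained a JTK-cycle call without 1 library at −95.2 kb (ZT3), −59.2 kb (ZT6 or ZT9), −31.4 kb (ZT3), −4.4 kb (ZT15), +18.3 kb (ZT12) and +27.7 kb (ZT6), with adjusted P values of at most 0.0417. With a period of 24 h only, the −27.7, −10.8 and +15.5 kb peaks failed (adjusted P = 0.113 each), and after cyclic loess normalization the −14.5 kb peak failed (adjusted P = 0.212). By the cosine, the −14.5, +7.5 and +22.8 kb peaks each passed in 5 of 8 such fits and failed without ZT6, ZT15 or ZT18 (edgeR adjusted P up to 0.137), and the −14.5 kb peak failed with library totals only (edgeR adjusted P = 0.0511).

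Among the peaks called by the cosine, fitted maxima were later from −59.2 to −31.4 kb than from −27.7 to +22.8 kb. Inside either stretch they followed no steady order by position. The 5 peaks called by the cosine only, from −59.2 to −31.4 kb, had their maxima between ZT8.42 and ZT11.4. The 5 called by both tests, from −27.7 to +22.8 kb, had theirs between ZT5.10 and ZT7.01, so these ranges of fitted values did not overlap. The maxima of the −31.4 kb (ZT8.42 ± 0.972 h) and −14.5 kb (ZT7.01 ± 0.853 h) peaks overlap within their standard errors. The 3 called by JTK-cycle only had theirs between ZT4.62 and ZT8.60, which overlaps both. The 17 peaks called by neither test had theirs between ZT0.845 and ZT14.0 and are not part of this split. Standard errors of the fitted maxima were 0.447 to 1.69 h over the 13 called peaks. These errors come from departures from the cosine and not from repeated time points, and this split was made after the calls were known and was not tested.

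**Figure D4:**
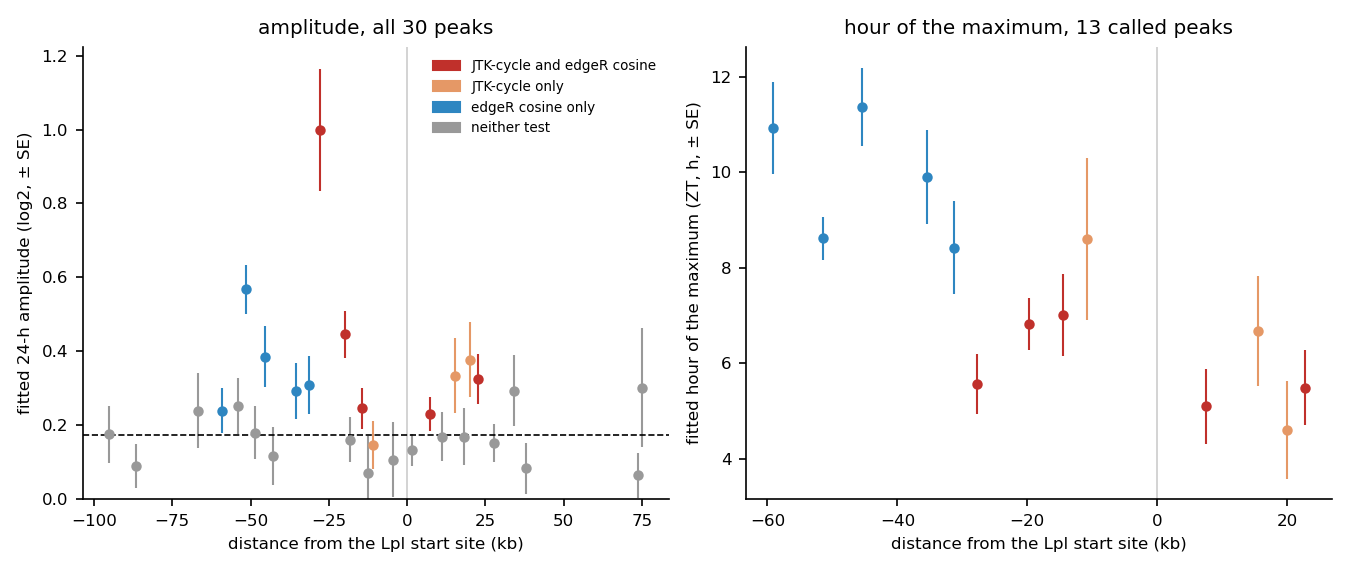
Left, fitted 24-h amplitude (log2, ± SE) of all 30 peaks against the distance from the Lpl start site in kb, with the median of all peaks, 0.17, as a dashed line. Right, fitted hour of the maximum (ZT in h, ± SE) of the 13 called peaks, which lies between ZT8.42 and ZT11.4 from −59.2 to −31.4 kb and between ZT4.62 and ZT8.60 from −27.7 kb on.

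Whether neighbours differ was tested directly on the 29 pairs of consecutive peaks. The edgeR test of the difference in cosine, with library as a factor, and JTK-cycle on the left peak's share of the pair's reads both need no normalization. The former called 6 of 29 pairs (9.92% of all 66041 consecutive pairs at an adjusted P value under 0.05) and the latter 6 of 29 (9.62% of all pairs), with 5 called by both. The edgeR P value is adjusted over all pairs by Benjamini-Hochberg. That of JTK-cycle is adjusted only over the 15 combinations of period and phase of a pair, and not over all pairs. Neighbours had different JTK-cycle calls in 12 of 29 pairs (19.6% of all pairs), but only 3 of these 12 were called by the edgeR test of the difference. For the other 9, a call in one peak and none in the next does not show that they differ.

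The clearest difference lay between the −31.4 and −27.7 kb peaks, 1778 bases apart. The left peak took 85.5, 73.5, 70.9, 78.7, 84.4, 91.2, 88.2 and 80.6% of the reads of the pair from ZT0 to ZT21. The share was lowest at ZT6 and rose to 91.2% at ZT15 (89.8 to 92.4%). Between these times the −27.7 kb signal fell further than that of the −31.4 kb peak. The difference in log2 cosine had an amplitude of 0.82 (adjusted P = 0.00319 by edgeR; exact adjusted JTK-cycle P = 0.00595) and passed in all 8 edgeR fits with 1 library left out.

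On its other side, the −27.7 kb peak took 20.8, 31.4, 37.6, 28.0, 25.2, 14.5, 18.6 and 29.4% of the reads it shares with the −19.8 kb peak. Although both oscillate, the −27.7 kb peak changed more (difference amplitude 0.61, adjusted P = 0.0240 by edgeR; exact adjusted JTK-cycle P = 0.0260). Without ZT6, ZT15 or ZT18 the edgeR adjusted P values were 0.141, 0.119 and 0.0957.

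The closest-spaced neighbours with different calls are the −19.8 kb (oscillating) and −18.1 kb (uncalled) peaks. The left peak took 66.0, 67.2, 69.4, 68.6, 63.9, 61.5, 57.0 and 62.2% of their reads, most at ZT6 and least at ZT18, with 67.5 to 71.2% and 54.2 to 59.8% as intervals. The difference amplitude was 0.33 (adjusted P = 0.0195 by edgeR; exact adjusted JTK-cycle P = 0.00595), and edgeR lost it without ZT6 (0.0809), ZT9 (0.0532) or ZT18 (0.133).

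At the 3′ end of Ints10, the −51.5 kb peak differed from both of its neighbours. Against the −53.9 kb peak, 256 bases to its left, that neighbour's share was 13.1, 11.0, 9.87, 10.3, 9.51, 16.2, 14.0 and 14.4%, lowest from ZT6 to ZT12 (difference amplitude 0.38, adjusted P = 0.0271 by edgeR, lost without ZT6, ZT9 or ZT18 at up to 0.0917). JTK-cycle on this share did not pass (exact adjusted P = 0.915). Against the −48.6 kb peak to its right, its own share was 81.4, 83.5, 85.4, 85.6, 85.8, 81.6, 78.9 and 78.2%, with a steady rise to ZT12 and a fall after (difference amplitude 0.39, adjusted P = 0.00638 by edgeR; exact adjusted JTK-cycle P = 0.0260). The latter passed in all 8 edgeR fits with 1 library left out.

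At the 3′ end of Lpl, the +22.8 kb peak took 35.2, 41.9, 40.7, 37.6, 32.9, 27.6, 32.1 and 36.6% of the reads it shares with the +27.7 kb peak. Its share was highest at ZT3 and ZT6 and lowest at ZT15 (difference amplitude 0.36, adjusted P = 0.0146 by edgeR; exact adjusted JTK-cycle P = 0.00595). Without ZT6 or ZT15 the edgeR adjusted P values were 0.0563 and 0.0989. Within the gene, JTK-cycle also called the share of the +18.3 kb peak against the +20.0 kb peak, 72.8, 71.6, 72.3, 75.2, 78.6, 79.5, 76.0 and 76.5% (exact adjusted P = 0.0260), which edgeR did not (adjusted P = 0.169).

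The start-site peak was not shown to differ from its neighbours. Against the weak −4.4 kb peak the adjusted P value was 0.407 by edgeR. Its share against the +7.5 kb peak stayed between 83.3 and 86.5% (difference amplitude 0.11, adjusted P = 0.345 by edgeR), although the +7.5 kb peak oscillated and the start-site peak did not. The +7.5 and +11.2 kb pair behaved likewise, with shares of 61.3 to 68.3% (adjusted P = 0.535 by edgeR). So did the −18.1 and −14.5 kb pair, with 18.8 to 22.6% (adjusted P = 0.289 by edgeR).

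**Figure D5:**
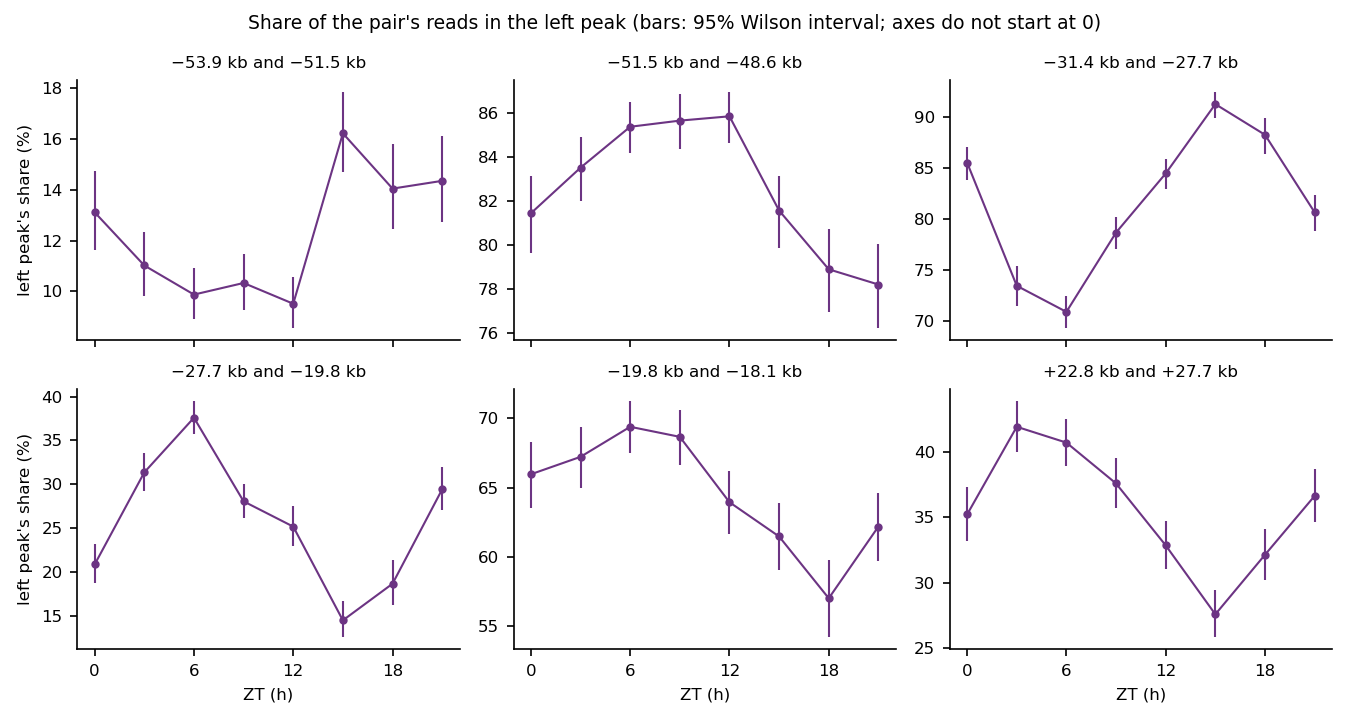
Share of the pair's reads in the left peak (%, own scale per panel, not from 0) against ZT in h for the 6 pairs of consecutive peaks called by the edgeR test of the cosine difference; bars are 95% Wilson intervals. In the −31.4 and −27.7 kb panel the left peak's share moves from 70.9% at ZT6 to 91.2% at ZT15.

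The sum of the 22 peaks nearest Lpl was compared with that of 10293 other genes over the 8 time points, by Pearson's r of log2 sums. The genes most like it were Sag (r = 0.977), Pomgnt2 (r = 0.977), Rnase10 (r = 0.974), Car1 (r = 0.972) and Adam12 (r = 0.972). The median r over all genes was 0.121, and 2.47% of genes had an r over 0.9. All points share the same 8 libraries and their depth, so r is given as a description.

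Of the other genes of the lipase pathway, 10 of 11 had at least 1 peak, 66 in all, of which 4 (6.06%) were called by JTK-cycle and 5 (7.58%) by the cosine, both shares under those of all peaks. Angptl4, which encodes an inhibitor of lipoprotein lipase, had 1 of 2 peaks called, by both tests, with 11586, 13094, 15204, 12889, 11899.8, 9325, 10278 and 11378 from ZT0 to ZT21 (ratio 1.63, adjusted P = 0.00483 by edgeR). That peak was highest at ZT6 and lowest at ZT15, as were 3 of the 8 oscillating peaks near Lpl. Gpihbp1, which encodes the capillary anchor of the lipase, had 3 of 3 peaks called by the cosine and none by JTK-cycle. Its start-site peak was highest at ZT6 with 340.1 and lowest at ZT15 with 149 (adjusted P = 0.0104 by edgeR).

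The cosine called 1 of 5 peaks of Angptl8, another inhibitor of the family, which went the opposite way, with 597 at ZT0 and 332 at ZT6 (fitted maximum at ZT20.2, adjusted P = 0.0206 by edgeR). JTK-cycle but not the cosine called 1 of 5 peaks of Apoc2, the activator of the lipase, 1 of 26 of Cd36, a fatty acid transporter, and 1 of 11 of Vldlr, a lipoprotein receptor (exact adjusted P = 0.0260 each). Those of Apoc2 and Vldlr were highest at ZT6 and lowest at ZT15, whereas that of Cd36 was highest at ZT18 and lowest at ZT9. The called peaks of Cd36 and Vldlr lie 25832.5 and 48182 bases from the start sites. Lmf1 and Sel1l, whose products mature the lipase in the endoplasmic reticulum, had 0 of 5 and 0 of 7 peaks called, and Apoc1 and Apoc3 had 0 of 1 each.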

How the data were processed

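PPARγ ChIP-sequencing of iBAT was measured at 8 time points, with 1 library each. The ZT12 input library is not used here, because no column of the table was matched to it. The authors aligned reads to mm10 with BWA 0.7.17, called peaks with MACS2 2.1.2, kept 66066 peaks and counted reads per peak with HTSeq 1.99.2. The deposited values are these raw counts, not normalized, and how duplicate reads were handled is not given in the sources used here. The methods name pools of 8 mice in one place and fewer animals per time point in another.

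From the counts, TMM factors and the 24-h cosine (glmQLFit and glmQLFTest, 5 residual degrees of freedom, Benjamini-Hochberg over all peaks) were calculated with edgeR 4.0.16 in R 4.3.3. The paper names edgeR for normalization, and TMM is its default. JTK-cycle (exact null distribution, periods of 21 and 24 h, Bonferroni over 15 combinations, threshold 0.05) was rewritten in Python 3.11.15. The JTK-cycle peak time (LAG) is not reported, because its choice among equally good combinations was set after comparison with the paper's supplementary values; no P value depends on it. Consecutive peaks were compared by edgeR with a library factor and by JTK-cycle on the share of reads. Departures from the fit serve as the spread, since no time point is repeated. The tests of single peaks and the edgeR test of pairs were also run on simulated data, while JTK-cycle on the share was not. Genes and sequences are from RefSeq GRCm38.p6, the same build as mm10. For likeness, peaks within 100 kb of a start site were summed per gene and sums under 500 left out. Every peak of the interval is named, and each pathway gene but 1 that is not reported here. Members, lists and tests were chosen with earlier results of these data known. DESeq2 1.42.0 and limma 3.58.1 served as alternatives, as did other thresholds, filters and normalizations.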

Additional observations from a re-analysis of the deposited data

How the results depend on the processing

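With 8 oscillating peaks as the value reported, a threshold of 0.01 left 1, and leaving out 1 library gave 4 to 9, with 4 without ZT18, 5 without ZT0 and 5 without ZT6. Of all 66066 peaks, JTK-cycle called 7686, and a threshold of 0.01 left 3079. Without ZT18, ZT0 and ZT6 the calls over all peaks were 7540, 8630 and 7810, within a range of 7432 to 10802 when 1 library was left out. With a period of 24 h only, JTK-cycle called 6 of the 30 peaks and 9896 of all. For the cosine and the pairs, counts over all peaks under the alternatives are not given, so those changes describe the neighbourhood only. The 10 peaks of the edgeR cosine became 3 at 0.01, 6 with library totals only, and 4 to 10 when 1 library was left out (4 without ZT6, ZT15 or ZT18, 6 without ZT12). The 6 pairs of the edgeR test of the difference became 2 at 0.01 and 2 to 7 without 1 library (2 without ZT6, 3 without ZT18), and the 6 pairs of the JTK-cycle share became 3 at 0.01. DR1 elements were held by 1 peak with up to 1 mismatch and by 4 in the central 300 bases, in place of 12. Of the calls of single peaks and pairs that changed, 28 JTK-cycle and 32 cosine values were lost, 14 JTK-cycle values were gained, and 11 pair calls were lost and 2 gained. Of the highest-to-lowest ratios of single peaks under the alternatives, 14 left the range given by the counting intervals and 346 did not. Among the 14, the ratio was 1.67 at −19.8 kb without ZT18, 1.37 at −14.5 kb without ZT6 and 1.56 at +22.8 kb without ZT6. The causes were not tested beyond the fewer libraries or stricter limits of each alternative. Samples could not be paired between time points, because each time point has 1 library and no numbers are shared. Neighbouring peaks were compared within the same libraries. Weak peaks, down to a mean count of 81.6, limit what can be seen.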
